A study of Mus musculus with 9 samples.

Results

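A set of 10 marker genes of pericytes and mesenchymal stromal cells was compared across 3 mouse stromal cell lines: Pdgfra, Pdgfrb, Cspg4, Ly6a, Thy1, Eng, Nt5e, Mcam, Lepr and Nes. Members were taken as all probe sets annotated with exactly 1 gene symbol, that of a marker. The rule found 17 probe sets for 9 of the 10 genes, of 15964 genes in all; no probe set carried the symbol of Ly6a alone, and Ly6a was not analysed here. The lines were AGM-s3-A9, a hematopoiesis supportive line from the aorta-gonad-mesonephros (AGM) region of the embryo, OP9, a supportive line from the calvaria of newborn mice, and AGM-s3-A7, a non-supportive line from the AGM region. Each group is a single line, and the labels give no genotype, passage or culture conditions. Every line has 1 array of each of 3 Affymetrix designs (MG-U74A, then B and C), 9 arrays in all. With 1 array per line and type there is no replicate error and no p-value, and a difference is described by its size. Whether it would recur in another culture of the same line was not tested.

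Pericytes are mural cells that wrap small vessels, and mesenchymal stromal cells are their close relatives in marrow and other connective tissue. Both are recognised by combinations of surface proteins, since no single one is specific. PDGFRα and PDGFRβ are receptor tyrosine kinases that receive platelet-derived growth factors. NG2 (Cspg4) is a membrane proteoglycan, CD146 (Mcam) and CD90 (Thy1) are immunoglobulin family adhesion proteins, endoglin (Eng) is a co-receptor for TGF-beta family ligands, CD73 (Nt5e) is an enzyme that makes adenosine, and the leptin receptor (Lepr) marks the stromal cells of adult mouse marrow that make stem cell niche factors. Nestin (Nes) is an intermediate filament protein inside the cell and not a surface protein, but a Nes reporter marks perivascular stromal cells in mouse marrow.

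Values are intensities after quantile normalization within an array type. The detection level was the higher of the array type's median and the 95th percentile of 34 negative control probe sets, which was an intensity of 49.0 for MG-U74A arrays, 52.8 for MG-U74B and 61.6 for MG-U74C. A value at or below it was set to it before a ratio was formed, and the fold is then written "at least". A gene is represented by its brightest probe set and is called measured when it exceeded the detection level in at least 1 line of a pair. A gene measured through 1 line of a pair alone can therefore only come out higher in that line. Over the 9 arrays the 3' to 5' signal ratio spanned 0.88 to 1.002 in Gapdh and 1.07 to 1.26 in actin. Of 16 fibroblast and mesenchymal genes, 13 exceeded the detection level in AGM-s3-A9, 12 in OP9 and 14 in AGM-s3-A7, with summed levels of 30814, 19180 and 31967. The 2 defining genes Vim and Mmp2 were below it in all 3 lines. The count was 0 of 13 endothelial genes in every line, and 2, 1 and 3 of 15 hematopoietic genes in the same order of lines, with Ptprc, the gene of the leukocyte common antigen, below the level in all, and Cd14, a monocyte marker, at 495, 298 and 503. For epithelial genes 3 of 12 exceeded it in every line, for neural and glial genes 3 of 10, and for skeletal muscle genes 1 of 10.

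**Figure D1:**
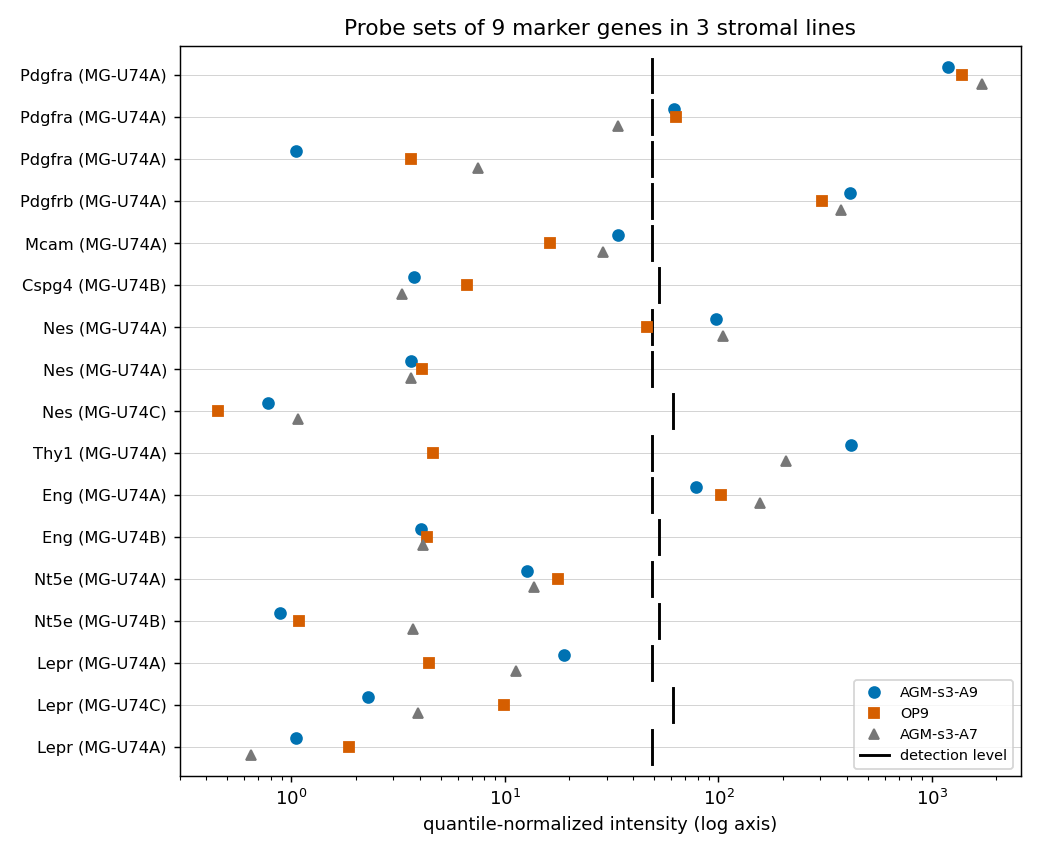
Quantile-normalized intensity (log axis) of all 17 probe sets of the 9 genes, 1 row per probe set with its array type; circles are AGM-s3-A9, squares OP9, triangles AGM-s3-A7, and the black bar is the detection level of the array type. The 6 rows with a point right of the bar are the 2 brighter Pdgfra rows, Pdgfrb and the brightest rows of Nes, Thy1 and Eng; Thy1 in OP9 (4.61) lies far left of both AGM lines.

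Of the 9 genes, 5 exceeded the detection level in at least 1 line: Pdgfra, Pdgfrb, Eng, Nes and Thy1. Pdgfra, Pdgfrb and Eng exceeded it in all 3 lines, Nes and Thy1 in the AGM lines alone. Cspg4, Mcam, Nt5e and Lepr lay below it in every line, as did 43.6% of all 15964 genes. By probe set, 6 of the 17 exceeded the level in some line, all of them on MG-U74A, as the plot of probe set levels shows. The arrays thus gave PDGF receptor transcripts in all lines, a Thy1 transcript in both AGM lines, and no measurable signal for 4 of the markers.

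Upstream sequence is shown for Pdgfra, Eng and Nes, the 3 measured markers with an entry in the RefSeq promoter table (GRCm38.p6). On their brightest probe sets Pdgfra and Eng had 1 order of the lines (AGM-s3-A7 over OP9 over AGM-s3-A9) and Nes another. Steps for Pdgfra and Nes in these orders lay within measurement error, as given below, and no link between sequence and order was tested. Each run is the 250 bases before the start of transcription on the plus strand, 5′ to 3′, with every CpG (the letters CG, the same on both strands) in capitals. The Pdgfra run lies at chr5:75152001-75152250, the Eng run at chr2:32646345-32646594 and the Nes run at chr3:87970843-87971092.
Pdgfra: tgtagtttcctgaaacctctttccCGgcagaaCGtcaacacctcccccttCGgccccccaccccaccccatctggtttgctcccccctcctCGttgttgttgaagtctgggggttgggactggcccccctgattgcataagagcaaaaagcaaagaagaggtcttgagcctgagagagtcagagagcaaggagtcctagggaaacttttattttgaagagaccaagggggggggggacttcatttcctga
Eng: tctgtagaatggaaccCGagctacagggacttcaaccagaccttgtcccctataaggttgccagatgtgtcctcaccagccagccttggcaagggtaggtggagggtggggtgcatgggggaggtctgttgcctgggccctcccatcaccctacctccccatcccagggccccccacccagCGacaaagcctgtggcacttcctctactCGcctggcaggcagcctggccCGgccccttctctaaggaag
Nes: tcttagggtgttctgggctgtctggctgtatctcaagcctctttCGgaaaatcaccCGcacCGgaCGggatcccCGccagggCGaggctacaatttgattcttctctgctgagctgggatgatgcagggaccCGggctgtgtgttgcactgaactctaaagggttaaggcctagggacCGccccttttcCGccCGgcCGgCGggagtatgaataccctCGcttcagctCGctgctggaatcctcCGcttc
The Pdgfra and Eng runs hold 4 CpG each and the Nes run 15, against a median of 6 over 32851 promoters of the same length. A count of 4 or fewer is found in 44.4% of those promoters, and 15 or fewer in 74.6%. The GC box GGGCGG, searched on both strands, was in 0 copies in Pdgfra and Eng and in 2 copies in Nes, and 32.7% of all promoters hold at least 1. No binding or methylation was measured, so these counts describe the letters alone.

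Pdgfra, the receptor that receives PDGF-A among other ligands and a common mark of mesenchymal progenitors, read 1187 in AGM-s3-A9, 1377 in OP9 and 1720.1 in AGM-s3-A7 on its brightest probe set. All 3 lines were far above the detection level, and the spread between them was small. Relative to AGM-s3-A7, AGM-s3-A9 was 1.45-fold lower and OP9 1.25-fold lower; relative to OP9, AGM-s3-A9 was 1.16-fold lower. For a yardstick of measurement error, pairs of probe sets of 1 gene on the same array type gave a robust SD of the log2 ratio of 0.30 for AGM-s3-A9 over AGM-s3-A7 (1160 genes), 0.31 for OP9 over AGM-s3-A7 (1134 genes) and 0.32 for AGM-s3-A9 over OP9 (1128 genes). It covers disagreement between probe sets on the same arrays, not separate cultures. The step between OP9 and AGM-s3-A9 was 0.66 of that SD, within it, and the step between AGM-s3-A7 and OP9 was 1.02 of it.

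The second Pdgfra probe set, dimmer and on the same array type, did not repeat that order. It read 62.1 in AGM-s3-A9, 63.4 in OP9 and 33.9 in AGM-s3-A7, so that AGM-s3-A7 alone was below the detection level. The supportive lines AGM-s3-A9 and OP9 were thus at least 1.27-fold and at least 1.29-fold higher. The third probe set, whose name carries the suffix for probes that may bind other transcripts, was not detected. It read 1.05, 3.62 and 7.47 in the same order of lines, values whose order has no meaning below the level. With the median over measured probe sets the log2 ratio of OP9 over AGM-s3-A7 was 0.03, against -0.32 on the brightest, so no direction is given for Pdgfra.

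Pdgfrb, the PDGF-B receptor that pericytes need for recruitment to vessels, had 1 probe set, at 414 in AGM-s3-A9, 306 in OP9 and 375 in AGM-s3-A7. Relative to AGM-s3-A7, AGM-s3-A9 was 1.10-fold higher and OP9 1.23-fold lower; relative to OP9, AGM-s3-A9 was 1.35-fold higher. Both steps in the order AGM-s3-A9, AGM-s3-A7, OP9 were within 1 robust SD (0.47 and 0.94 of it). The size depends on how the arrays are put on a common scale. With the values as deposited, AGM-s3-A9 over OP9 had a log2 ratio of 1.08 for Pdgfrb, where the median of all measured genes also stood at 0.19 instead of -0.02.

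Eng, the TGF-beta co-receptor, read 78.9 in AGM-s3-A9, 103 in OP9 and 157 in AGM-s3-A7 on its brightest probe set. It was lower in both supportive lines, by 1.99-fold in AGM-s3-A9 and 1.52-fold in OP9, and the first of these stopped just short of 2-fold. The steps in the order were 1.93 robust SD between AGM-s3-A7 and OP9 and 1.20 between OP9 and AGM-s3-A9. Its log2 ratio of -0.99 for AGM-s3-A9 over AGM-s3-A7 was below that of all but 203 of 8590 measured genes, while the median of 710 measured genes on chromosome 2, where Eng lies, was 0.24. With the values as deposited the ratio of Eng was -0.28, where the median of all measured genes was also 0.24. A second Eng probe set, on MG-U74B, read 4.04 in AGM-s3-A9, 4.32 in OP9 and 4.15 in AGM-s3-A7 and was not detected.

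Nes read 97.3 in AGM-s3-A9, 46.5 in OP9 and 105 in AGM-s3-A7. The AGM lines differed by 0.35 robust SD, and OP9 lay just below the detection level of 49.0. OP9 was thus at least 2.14-fold lower than AGM-s3-A7 and AGM-s3-A9 at least 1.99-fold higher than OP9, a step of at least 3.06 robust SD. On MG-U74A the detection level is the array median, and all 3 readings lay near it. With values as deposited or scaled on hybridization controls the log2 ratio of OP9 over AGM-s3-A7 was -0.84 and -0.89, short of 2-fold. The other Nes probe sets, on MG-U74A and MG-U74C, read between 0.45 and 4.08 over the 3 lines and were not detected.

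Thy1 separated the lines most among the 5 measured genes. This small GPI-anchored glycoprotein, used to define mesenchymal stromal cells and fibroblasts, read 416 in AGM-s3-A9, 4.61 in OP9 and 206 in AGM-s3-A7. Both AGM lines were well above the detection level, and OP9 was below it. In the values as deposited the readings were 572 in AGM-s3-A9, 4.18 in OP9 and 170.4 in AGM-s3-A7. After normalization, AGM-s3-A9 was 2.02-fold higher than AGM-s3-A7, OP9 at least 4.21-fold lower than AGM-s3-A7, and AGM-s3-A9 at least 8.50-fold higher than OP9. The steps were 3.37 and at least 6.61 robust SD. In a culture measured in bulk, fewer Thy1-positive cells and less Thy1 RNA per cell cannot be told apart. All 3 ratios rest on 1 probe set. The summed level of the 16 fibroblast and mesenchymal genes given above was also lowest in OP9, and its part in the Thy1 difference was not tested.

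For AGM-s3-A9 over AGM-s3-A7, where both lines were above the detection level, 255 of 8590 measured genes stood further up than Thy1. No place among all genes is given for the pairs with OP9, since those Thy1 ratios are bounds. The supportive lines lay on opposite sides of AGM-s3-A7 for Thy1, both comparisons sharing the AGM-s3-A7 arrays. Under the 10 other settings tried, AGM-s3-A9 stayed at least 2-fold above AGM-s3-A7 in 10, with log2 ratios from 1.01 to 1.75. Only the settings that rescale the arrays could move this ratio. Thy1 has 1 unsuffixed probe set, on MG-U74A, and both AGM lines lay above every floor tried. The ratio was 1.01 with 75th percentile scaling, 1.45 with hybridization control scaling and 1.75 with deposited values. OP9 stayed at least 2-fold below AGM-s3-A7 in 9. The exception was a floor at the 75th percentile, which lies near the AGM-s3-A7 reading and leaves a log2 ratio of -0.27. Settings on array types, suffixes, the median over probe sets and the median floor could not move the OP9 ratio.

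**Figure D2:**
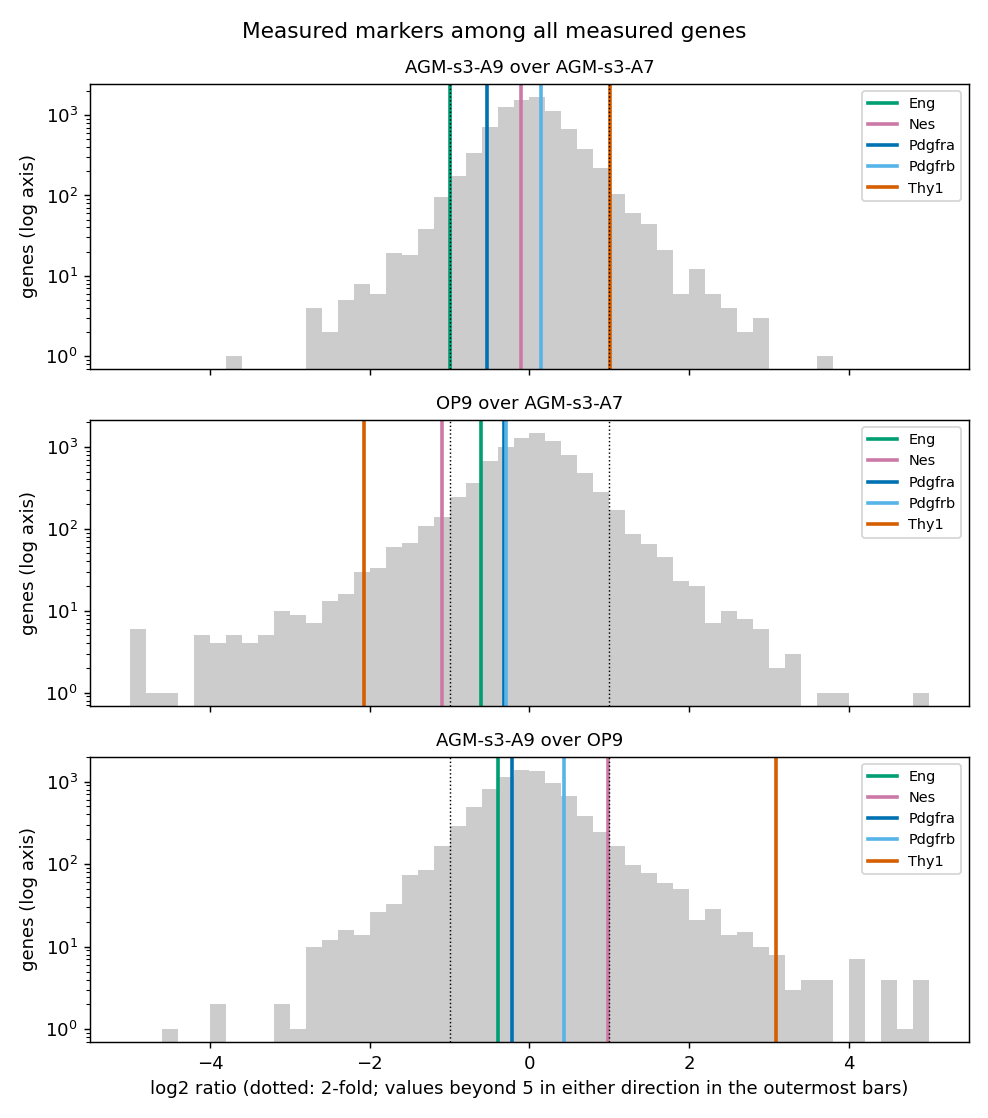
Histograms of the log2 ratio of all measured genes for each pair of lines (number of genes on a log axis), with coloured lines for the 5 measured markers and dotted lines at 2-fold. Thy1 lies at 1.01 in the upper panel and is drawn at -2.07 and 3.09 in the panels with OP9, where the true distance from 0 is at least that, because OP9 was set to the detection level. Pdgfra and Pdgfrb lie inside the dotted lines in all 3.

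Of the 5 measured markers, 1 (Thy1) reached 2-fold between the AGM lines, higher in AGM-s3-A9, and 0 were that much lower, where 3.08% of all 8590 measured genes were that much higher and 2.28% that much lower. In OP9 against AGM-s3-A7, 2 were lower (Thy1 and Nes) and 0 higher, against a background of 5.98% lower and 5.14% higher over 8739 genes. In AGM-s3-A9 against OP9, 1 was higher (Thy1) and 0 lower, against 6.58% higher and 5.06% lower over 8760 genes. The median log2 ratio of the 5 was -0.11 for AGM-s3-A9 over AGM-s3-A7, -0.60 for OP9 over AGM-s3-A7, and between the supportive lines (AGM-s3-A9 over OP9) 0.44, while the medians of all measured genes were 0.01, 0.04 and -0.02. With 5 genes, counts of 1 and 2 are read as single genes and not as a shift of the group. Nes and Thy1 passed in the pairs with OP9 through the AGM lines alone, so their direction there was fixed by the filter. The calls in those pairs rest on these genes alone, and the medians there are partly set by the filter.

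The 4 markers without a measured level were uniformly dim. NG2 proteoglycan transcript (Cspg4) read 3.74 in AGM-s3-A9, 6.65 in OP9 and 3.31 in AGM-s3-A7 on MG-U74B. CD146 transcript (Mcam) was the nearest to the detection level, at 34.0 in AGM-s3-A9, 16.3 in OP9 and 28.7 in AGM-s3-A7. Below the level the order of values has no meaning, and no fold is given.

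CD73 transcript (Nt5e) read 12.7 in AGM-s3-A9, 17.7 in OP9 and 13.7 in AGM-s3-A7 on its brighter probe set and at most 3.72 on the other. The leptin receptor (Lepr), whose splice forms were not told apart here, read 18.9 in AGM-s3-A9, 4.41 in OP9 and 11.3 in AGM-s3-A7 on the brightest of 3 probe sets, the others lying between 0.65 and 9.87. These readings do not show that the genes are silent. Among 4371 genes detected in all 3 lines that have further probe sets, 61.1% of those 8273 probe sets lay below the detection level in all lines, and 47.9% where both lay on MG-U74A. Vim, the vimentin gene of mesenchymal cells, itself read 21.7, 22.9 and 17.9 in AGM-s3-A9, OP9 and AGM-s3-A7.

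Genes around Thy1 on its chromosome were examined after its values were seen. In the gene order of GRCm38.p6, the 5 nearest measured genes on either side had log2 ratios of OP9 over AGM-s3-A7 between -1.09 and 0.56 with a median of -0.11. The nearest on one side, the adhesion gene Nectin1, was at -0.51, and Oaf, the next measured gene, was the lowest at -1.09. The nearest on the other side, the deubiquitinase gene Usp2, was below detection in AGM-s3-A9 and OP9 and just above it, at 49.02, in AGM-s3-A7. For AGM-s3-A9 over AGM-s3-A7 the 10 neighbours lay between -0.44 and 0.37, all below the 1.01 of Thy1. Over chromosome 9, which also carries Cspg4, Mcam and Nt5e, the median log2 ratio of 473 measured genes was 0.08 for OP9 over AGM-s3-A7. Over the chromosomes of the other measured markers (2, 3, 5 and 18) it was between -0.13 and 0.17.

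**Figure D3:**
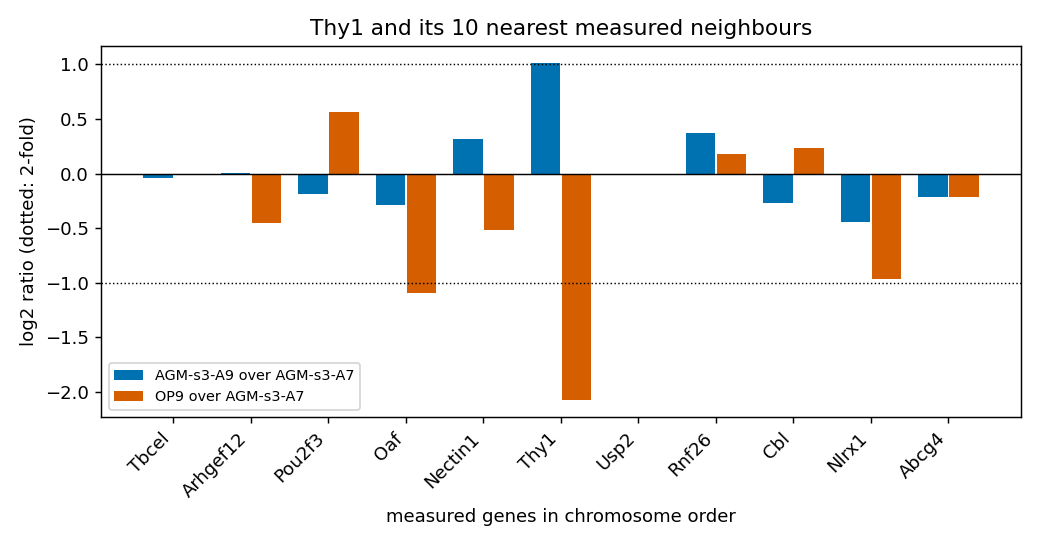
Log2 ratios of Thy1 and of the 5 nearest measured genes on each side in chromosome order, for AGM-s3-A9 over AGM-s3-A7 (blue) and OP9 over AGM-s3-A7 (orange); dotted lines mark 2-fold. Thy1 has the longest bar in both comparisons, that for OP9 being a bound, and Oaf (-1.09) is the only neighbour past 2-fold.

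Genes whose pattern over the 3 lines was most like that of Thy1 were found by the smallest Euclidean distance between centred log2 intensities, among 4852 genes on MG-U74A. With 3 lines this likeness is a description of 3 points. Thy1 in OP9 entered at the detection level of 49.0 in place of its reading of 4.61, so the likeness and its distances are those to the floored pattern and are set by that floor. The nearest to it was Ncam1, a neural cell adhesion molecule gene (distance 0.09), at 707 in AGM-s3-A9, 90.6 in OP9 and 368 in AGM-s3-A7. It was followed by Gja1, the connexin 43 gene (0.12), at 3186 in AGM-s3-A9, 380.1 in OP9 and 1759 in AGM-s3-A7. Actg2, a smooth muscle actin gene (0.27), read 2878, 431 and 1770 in the same order of lines. All 3 were above the detection level in OP9, where Thy1 was not. Ncam1 is also 1 of the 10 neural and glial genes with a probe set, whose summed level was 1634 in AGM-s3-A9, 1046 in OP9 and 1058 in AGM-s3-A7. The genes nearest to Nes, whose OP9 reading also entered at 49.0, were St3gal1, Cdc42ep4 and Rnf19a, with distances of 0.02, 0.03 and 0.05, and with log2 ratios of OP9 over AGM-s3-A7 of -1.09, -1.10 and -1.08.

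Thy1 is held in the membrane by a GPI anchor, as are Ly6 family proteins. Of a list of 19 Ly6 family and other GPI-anchored surface genes, 17 had a probe set and 5 were measured. In OP9 against AGM-s3-A7, 3 of 5 were at least 2-fold lower and 0 higher, with a median log2 ratio of -1.15, where 5.98% of all measured genes were that much lower and the median of all was 0.04. With 5 genes this is a description of these arrays. Cd109 and Cd24a were measured through AGM-s3-A7 alone, so their lower values in OP9 (log2 ratios of -0.17 and -0.50) were fixed by the filter. The 3 genes that reached 2-fold were above the level in both lines. The complement inhibitor gene Cd59a read 371 in AGM-s3-A9, 78.4 in OP9 and 268 in AGM-s3-A7, a level in OP9 that was 3.41-fold lower relative to AGM-s3-A7. Prnp, the prion protein gene, was 3.23-fold lower in OP9 against AGM-s3-A7, at 2612 in AGM-s3-A9, 720.4 in OP9 and 2330 in AGM-s3-A7. Ly6e, an interferon-inducible relative of Ly6a, read 3787 in AGM-s3-A9, 1009.8 in OP9 and 2247 in AGM-s3-A7, on a suffixed probe set that may bind other transcripts. Its level in OP9 was 2.22-fold lower relative to AGM-s3-A7, on 1 of 2 measured probe sets. All 3 genes were higher in AGM-s3-A9 than in OP9, by 4.73-fold, 3.63-fold and 3.75-fold. Between the AGM lines 0 of 5 reached 2-fold, against 3.08% higher and 2.28% lower over all measured genes.

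Other surface markers of mesenchymal stromal cells were for the most part readable: of 24, 18 exceeded the detection level in AGM-s3-A9, 15 in OP9 and 16 in AGM-s3-A7. Between the AGM lines, AGM-s3-A9 over AGM-s3-A7, 2 of 18 were at least 2-fold higher and 0 lower, against 3.08% and 2.28% over all measured genes. They were Procr, the endothelial protein C receptor gene (148 in AGM-s3-A9 and 44.0, below detection, in AGM-s3-A7, at least 3.03-fold higher), and Susd2 (142 in AGM-s3-A9 and 55.3 in AGM-s3-A7, 2.56-fold higher). Susd2 in AGM-s3-A7 was just above the level of 52.8. Procr was measured through AGM-s3-A9 alone, so its direction was fixed by the filter.

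In OP9 against AGM-s3-A7, 2 of 17 were higher and 3 lower, against 5.14% and 5.98% over all measured genes. The adhesion receptor gene Icam1 was at least 5.24-fold higher, at 257 in OP9 and 9.74 in AGM-s3-A7, with 76.2 in AGM-s3-A9. Vcam1, another adhesion receptor gene, was 2.35-fold higher, at 907 in OP9 and 387 in AGM-s3-A7, on 1 of 3 measured probe sets. Pdpn, which encodes podoplanin, was at least 4.93-fold lower, at 29.6 in OP9 and 242 in AGM-s3-A7, with 169 in AGM-s3-A9. The aminopeptidase N gene Anpep (CD13) was 2.37-fold lower, at 56.9 in OP9 and 135 in AGM-s3-A7. In this pair Icam1 was measured through OP9 alone and Pdpn through AGM-s3-A7 alone, so their direction was fixed by the filter. Against OP9, AGM-s3-A9 was at least 2-fold higher for 6 of 18 and lower for 1, against 6.58% and 5.06% over all measured genes. Pdpn and Procr passed in this pair through AGM-s3-A9 alone. The largest measured fold in this pair was that of Cd82, a tetraspanin gene (3.97-fold higher, on 1 of 2 measured probe sets).

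**Figure D4:**
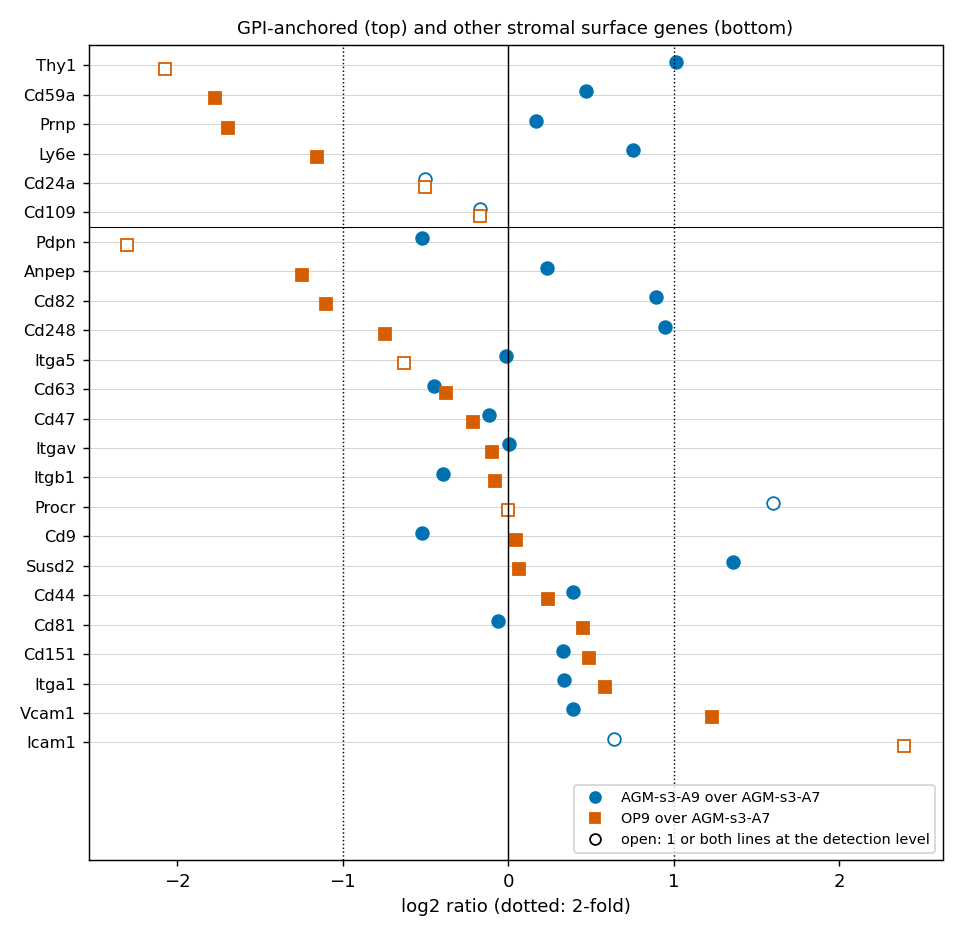
Log2 ratios of measured surface genes, with Thy1 and 5 GPI-anchored genes above the line and 18 other mesenchymal stromal surface markers below it; circles are AGM-s3-A9 over AGM-s3-A7, squares OP9 over AGM-s3-A7, open symbols have 1 or both lines at the detection level, and dotted lines mark 2-fold. Thy1, Cd59a, Prnp and Ly6e lie left of the lower dotted line for OP9 and right of 0 for AGM-s3-A9.

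Pericyte and mural markers other than the 9 genes were lower in OP9 in 4 of 11 measured genes and higher in 1 (Notch3), against 5.98% lower and 5.14% higher over all measured genes, with a median log2 ratio of -0.29 over AGM-s3-A7. The lower genes were Cnn1, Zic1, Acta2 and Tagln, the last 2 named after their values were seen. In this pair Cnn1, Zic1 and Foxd1 were measured through AGM-s3-A7 alone, and Myh11 and Tbx2 through OP9 alone. Their direction was fixed by the filter, so the counts and the median are partly set by it. Acta2, Tagln and Notch3 were above the level in both lines. Cnn1, a calponin gene of smooth muscle, read 599 in AGM-s3-A9, 3.23 in OP9 and 700.3 in AGM-s3-A7. OP9 was thus below detection and at least 14.3-fold lower, on a suffixed probe set that may bind other transcripts. The contractile genes Acta2 (smooth muscle actin) and Tagln were 4.58-fold and 3.80-fold lower in OP9, each with AGM-s3-A9 close to AGM-s3-A7. Against AGM-s3-A7, AGM-s3-A9 had 1 higher and 0 lower of 11, against 3.08% and 2.28% over all measured genes. That 1 was Aoc3, an amine oxidase of smooth muscle and pericytes, at 534 in AGM-s3-A9 and 193 in AGM-s3-A7 (2.76-fold), with 163 in OP9. Zic1, a transcription factor gene, read 442 in AGM-s3-A9, 2.33 in OP9 and 409.6 in AGM-s3-A7. Against AGM-s3-A7, OP9 was at least 8.36-fold lower, on 1 of 2 measured probe sets. Below the detection level in all 3 lines were 9 of the 20 genes of the list.

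Ligands and partners of the PDGF receptors were also counted. Of 10 genes 9 were measured between the AGM lines, with 0 at least 2-fold apart, and 8 in OP9 against AGM-s3-A7, with 1 lower. Over all measured genes 3.08% were that much higher and 2.28% lower between the AGM lines, and 5.98% lower in OP9. With so few genes these counts are not read as a result about the list. The 1 lower gene was Pdgfrl, a PDGF receptor-like gene that has no kinase domain, at 413 in AGM-s3-A9, 11.7 in OP9 and 760.5 in AGM-s3-A7. Its OP9 reading was below detection, at least 14.4-fold below AGM-s3-A7 and at least 7.81-fold below AGM-s3-A9. In both pairs Pdgfrl was measured through the AGM line alone, so its direction was fixed by the filter.

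Around endoglin, 13 of 15 receptor, ligand and Smad genes were measured. Against AGM-s3-A7, 1 was at least 2-fold lower and 0 higher in AGM-s3-A9, and 2 lower and 0 higher in OP9. Over all measured genes 2.28% were that much lower and 3.08% higher in AGM-s3-A9, and 5.98% lower and 5.14% higher in OP9. Tgfbr2, the type II TGF-beta receptor gene, read 573 in AGM-s3-A9, 571 in OP9 and 1192 in AGM-s3-A7. Both supportive lines were lower, AGM-s3-A9 by 2.08-fold and OP9 by 2.09-fold. Acvrl1, the ALK1 receptor gene that works with endoglin, read 167 in AGM-s3-A9, 49.6 in OP9 and 122 in AGM-s3-A7. Against AGM-s3-A7, OP9 was 2.45-fold lower, on 1 of 2 measured probe sets and close to the detection level. The Acvrl1 probe set used is a suffixed one that may bind other transcripts. Against OP9, AGM-s3-A9 had 1 of 13 higher (Acvrl1, 3.37-fold, on 1 of 4 measured probe sets) and 2 lower, against 6.58% and 5.06% over all measured genes. Tgfb2, a TGF-beta ligand gene, read 37.6 in AGM-s3-A9, below detection, against 133 in OP9, at least 2.71-fold lower. Its direction was fixed by the filter. The co-receptor gene Tgfbr3 read 1068 against 2245, 2.10-fold lower, on 1 of 4 measured probe sets.

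Partners of the leptin receptor were measured although Lepr was not, 12 of 13 in every line. Between AGM-s3-A9 and AGM-s3-A7, 0 of 12 were 2-fold apart, and in OP9 1 was lower and 0 higher. Over all measured genes 3.08% were that much higher and 2.28% lower between the AGM lines, and 5.98% lower and 5.14% higher in OP9. Socs3, the feedback inhibitor that leptin induces through STAT3, was 3.46-fold lower in OP9, at 73.2 in OP9 and 253 in AGM-s3-A7, with 197 in AGM-s3-A9. Both of its measured probe sets were at least 2-fold lower. Irs1, an insulin receptor substrate gene, read 491 in AGM-s3-A9 against 1407 in OP9, which is 2.87-fold lower.

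Around CD73, 4 of 7 genes with a probe set were measured between AGM-s3-A9 and AGM-s3-A7, of which 2 were at least 2-fold higher and 1 lower. Over all measured genes 3.08% were that much higher and 2.28% lower. Ada, whose product breaks adenosine down, read 222 in AGM-s3-A9, 67.0 in OP9 and 48.8, below detection, in AGM-s3-A7. Against AGM-s3-A7, AGM-s3-A9 was at least 4.53-fold higher, a direction fixed by the filter, since AGM-s3-A9 alone exceeded the level in this pair. The equilibrative nucleoside transporter gene Slc29a1 read 1015 in AGM-s3-A9, 1106 in OP9 and 461 in AGM-s3-A7. Relative to AGM-s3-A7, AGM-s3-A9 was 2.20-fold higher and OP9 2.40-fold higher. Adk, the adenosine kinase gene, was 2.06-fold lower in AGM-s3-A9, at 192 in AGM-s3-A9 and 394 in AGM-s3-A7, with 281 in OP9. The Adk probe set used is a suffixed one that may bind other transcripts.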

How the data were processed

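Gene expression in 3 mouse stromal lines was measured on 9 oligonucleotide arrays. Total RNA was extracted on RNeasy columns and 6 ug was made into biotinylated cRNA, per the labels' protocols. The deposited files hold 1 linear intensity per probe set and array; for scanner software, background handling, probe summarisation and scaling, the sources used here say nothing. Trimmed means of the 3 arrays of a type differed by up to 61.1%, so log2 intensities were quantile-normalized within an array type (Python 3.11.15, numpy 2.4.6, pandas 2.3.3), which removes any general shift between lines. Probe sets were named through the platform annotation: of 36899, 198 were controls, 29131 had 1 symbol, 724 several and 6846 none. Of 15964 genes, 99.8% were found in the RefSeq table of GRCm38.p6, used for gene order and chromosome.

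The detection level was the higher of the array type's median and the 95th percentile of 34 negative control probe sets. A gene was represented by its brightest probe set over the 3 lines and called at a fold of at least 2. There was no test, as each group has 1 array per type, and this number limits the precision. The procedure was tested on simulated MG-U74A data, with known changes larger than that fold in bright probe sets. Dim probe sets such as those of Nes and Eng, and changes near the fold used for calls, were not simulated. Besides the members, the naming rule took up to 2 genes per context list, pair and direction with the largest fold, the 3 most similar genes for Thy1 and Nes, and the defining cell type markers below detection (Vim, Mmp2, Ptprc). Cd14, Acta2, Tagln, Csf1, Il7, Foxd1, Myh11, Tbx2, Cd109, Cd24a and the neighbours of Thy1 were added after values were seen. Members and lists were chosen with earlier results of these data known.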

Additional observations from a re-analysis of the deposited data

How the results depend on the processing

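No paired analysis was possible because each line has 1 array per array type and the labels carry no replicate numbers; for the same reason no array could be left out. For processing, 10 other settings and 2 other folds were tried. Of 144 ratios of single markers, 124 moved by less than 1 robust SD and 20 by more, and 0 ratios of at least 2-fold changed direction. Much of the 124 was fixed in advance, so that count does not measure stability. The brightest probe sets of the measured markers lie on MG-U74A, carry no suffix and have the median as detection level. Leaving out MG-U74C, using MG-U74A alone, dropping suffixed probe sets and a floor at the median therefore could not move these ratios. The median over probe sets could move Pdgfra alone, the only marker with a second measured probe set. The other floors could move only the Thy1 and Nes ratios with OP9. With deposited values every measured marker moved by more than 1 robust SD for AGM-s3-A9 over AGM-s3-A7. For AGM-s3-A9 over AGM-s3-A7 the count of markers at least 2-fold apart was 1, and 2 with 75th percentile scaling, 2 at 1.5-fold and 0 at 3-fold; the median log2 ratio of -0.11 became 0.62 with deposited values and 0.32 with hybridization control scaling. For OP9 over AGM-s3-A7 the count was 2, and 1 with deposited values, 1 with hybridization control scaling, 0 with the 75th percentile as floor and 1 at 3-fold. For AGM-s3-A9 over OP9 it was 1, and 3 with deposited values, 2 with hybridization control scaling, 2 with the control level as floor and 2 at 1.5-fold; the median of 0.44 became 1.08 with deposited values. The deposited values and the hybridization control scaling move all genes: the median log2 ratio of AGM-s3-A9 over AGM-s3-A7 was 0.24 and 0.23 in them, against 0.01, and that of OP9 over AGM-s3-A7 was 0.09 and 0.21, against 0.04. The share of higher genes among those called for AGM-s3-A9 over AGM-s3-A7 was 79.8% and 84.3%, against 57.5%, and for OP9 over AGM-s3-A7 63.8% with hybridization controls, against 46.2%. With deposited values, of AGM-s3-A9 over AGM-s3-A7 12.8% of genes were higher, against 3.08%, and of AGM-s3-A9 over OP9 13.5% were higher and 7.69% lower, against 6.58% and 5.06%. With hybridization controls, 7.18% were higher and 1.34% lower for AGM-s3-A9 over AGM-s3-A7, against 3.08% and 2.28%, and 7.98% higher for OP9 over AGM-s3-A7, against 5.14%. The Nes call in OP9 was lost in both of these scalings; that of Thy1 held in them. The floors bound Thy1 in OP9: its log2 ratio against AGM-s3-A7 was -2.40 with the control level as floor and -0.27 with the 75th percentile. Signal over background limits Nes, Mcam and Eng, which read within a few-fold of the detection level.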

Other observations

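Of 17 intermediate filament genes and other genes listed as partners of nestin, only 7 exceeded the detection level in any line, most of them not far above it. In OP9 against AGM-s3-A7, 7 were measured, with 0 at least 2-fold higher and 0 lower. Between the AGM lines 6 were measured, with the same counts. The rest, Vim among them, lay below the level in all 3 lines and were not compared. Of a list of marrow stromal niche genes, 13 were measured in OP9 against AGM-s3-A7. Of these, 6 were at least 2-fold higher and 1 lower, with a median log2 ratio of 0.84. Lepr was not detected in any line. Over all measured genes 5.14% were that much higher and 5.98% lower. The higher genes were Ebf3 (10.4-fold), Lpl (9.71-fold), Kitl (2.90-fold), Csf1 (2.51-fold), Adipoq (at least 4.08-fold) and Il7 (at least 2.37-fold). Adipoq and Il7 were above the detection level in OP9 alone, so they were measured only through the line where they were high. The 1 lower was Grem1, a BMP antagonist gene, at 107 in AGM-s3-A9, 4.24 in OP9 and 198 in AGM-s3-A7. Against AGM-s3-A7, OP9 was at least 3.75-fold lower, on 1 of 2 measured probe sets. Grem1 was measured in this pair through AGM-s3-A7 alone, so its direction was fixed by the filter. In AGM-s3-A9 against AGM-s3-A7, 2 of 11 were higher and 0 lower, against 3.08% and 2.28% over all measured genes.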
